A study of Mus musculus with 8 samples.

Results

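The tachykinin family was examined in mouse uterus at gestation day (GD) 3.5 through 6 of the 24963 genes in the expression table. These were the ligand genes Tac1, Tac2 and Tac4 and the receptor genes Tacr1, Tacr2 and Tacr3, each taken by its gene symbol. The family was selected on the FPKM of Tac2, which were low in Nr2f2 d/d uteri, so the Tac2 values of that contrast are given as a description and carry no test. The control group was 4 Nr2f2 f/f mice, labelled as wild type, which carry the floxed Nr2f2 allele without Cre. The other group was 4 Nr2f2 d/d mice (Pgr Cre/+; Nr2f2 f/f), in which Cre knocked into 1 Pgr allele deletes Nr2f2 in Pgr-expressing cells, so that only this group also had 1 Pgr allele occupied by Cre. Pgr is active in several uterine cell types, and cells that do not express it keep Nr2f2. All females were given as C57B6/J and had mated with vasectomized males. The labels give an age of 8 weeks and the study's methods give 2 to 3 months. Each whole uterus gave 1 RNA-seq library, and replicate numbers are those of the sample titles.

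Tachykinins are short peptides cut from larger precursors and amidated at their C-terminus. Tac1 encodes substance P and neurokinin A, Tac2 of the mouse encodes neurokinin B, and Tac4 encodes hemokinin-1. They act on G protein-coupled receptors that raise calcium through Gq and phospholipase C. Substance P and hemokinin-1 prefer the Tacr1 product, neurokinin A that of Tacr2, and neurokinin B that of Tacr3, although each peptide can act on the other receptors. Tachykinins contract uterine smooth muscle and widen or leak small vessels. Neurokinin B is best known from hypothalamic neurons that also make kisspeptin and dynorphin, and from the placenta. Sensory nerves that carry substance P reach the uterus from cell bodies that lie outside it.

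The peptides share an ending that begins with phenylalanine and closes with glycine, leucine and methionine, followed in the precursor by a glycine and a pair of basic residues where the precursor is cut. The coding bases of this ending are shown because they are what makes the 3 ligand genes 1 family. Each stretch of 39 bases is given from 5′ to 3′ on the plus strand of mm10 and lies in 1 coding exon of transcripts in GENCODE vM21. Capitals mark the 15 bases that encode the shared ending, and the lower-case bases after them encode the glycine and the cutting site.

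Tac1, substance P, chr6:7556735-7556773: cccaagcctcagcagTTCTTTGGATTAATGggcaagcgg

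Tac1, neurokinin A, chr6:7559101-7559139: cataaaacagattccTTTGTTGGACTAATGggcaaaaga

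Tac2, neurokinin B, chr10:127729116-127729154: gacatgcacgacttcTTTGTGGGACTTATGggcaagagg

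Tac4, hemokinin-1, chr11:95265263-95265301: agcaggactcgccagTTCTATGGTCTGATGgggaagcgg

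The precursor of Tac1 held 2 such endings, and those of Tac2 and Tac4 held 1 each. The 6 genes lie apart on 4 chromosomes of mm10, all on the plus strand. Tac2 (ENSMUSG00000025400.11) lies at chr10:127724478-127731768 and Tacr1 (ENSMUSG00000030043.11) at chr6:82402334-82560104. Tac1 lies at chr6:7554879-7565834, Tac4 at chr11:95261529-95269265, Tacr2 at chr10:62252438-62265990 and Tacr3 at chr3:134829007-134934579. In GENCODE vM21 other annotated genes shared 0% of the exon bases of each of the 6. The annotation behind the FPKM is not given, so overlap in it was not checked.

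Expression was given as FPKM, the fragments counted on a gene relative to the length of the gene and to all fragments of its library. Library totals were not given with the values and were recovered from them, at 61500000 to 92650000 fragments. Nr2f2, the deleted gene, had 21.8 to 25.7 FPKM in Nr2f2 f/f and 6.90 to 9.74 FPKM in Nr2f2 d/d, and fell with a log2 change of -1.39 (adjusted p = 0.00549 from limma). Markers of stroma, epithelium and smooth muscle were high in every library, while Fshr of ovarian granulosa cells and Scn10a of sensory neurons were listed at 0 in all 8. Nr2f2 f/f replicate 2 stood apart: among the 1135 tested genes with 1 isolated Nr2f2 f/f library, it was the isolated one in 852. Nr2f2 d/d replicate 3 was the isolated one in 418 of the 844 such genes of its group. Tac2 and Tacr1 are given with and without each of these libraries. Other values rest on all 8 libraries unless stated. Without Nr2f2 d/d replicate 3 the log2 change of Nr2f2 was -1.28 (adjusted p = 0.0035 from limma).

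Of the ligand genes, Tac2 was the one at a substantial level, and its level was lower in Nr2f2 d/d uteri. Tac2 had 14.0, 10.4, 5.85 and 3.83 FPKM in Nr2f2 f/f replicates 1 to 4, about 207 to 779 fragments a library. In Nr2f2 d/d replicates 1 to 4 it had 0.385, 0.587, 0.146 and 2.83 FPKM, about 12 to 226 fragments. Each Nr2f2 d/d library was below each Nr2f2 f/f library, and Nr2f2 d/d replicate 4 was well above the other 3 of its group. The means were 8.52 ± 4.57 and 0.986 ± 1.24 FPKM (SD, n = 4 each), so that the Nr2f2 d/d mean was 11.6% of the Nr2f2 f/f mean. On the log2(FPKM + 0.5) scale the fold change was -2.76 with a standard error of 0.556. The closest libraries of the groups, Nr2f2 f/f replicate 4 and Nr2f2 d/d replicate 4, differed 1.35-fold. Within groups the highest library exceeded the lowest 3.66-fold in Nr2f2 f/f and 19.4-fold in Nr2f2 d/d. Nr2f2 d/d replicate 4 set most of the Nr2f2 d/d mean: without it the mean was 0.373 ± 0.221 FPKM (SD, n = 3), 4.38% of the Nr2f2 f/f mean, and the ratio of the group means went from 8.64 to 22.9. Leaving out Nr2f2 f/f replicate 2 gave a log2 change of -2.62, and leaving out Nr2f2 d/d replicate 3 one of -2.46. Of all 14323 genes tested, 9.91% were lower in Nr2f2 d/d with groups that did not overlap, and since the choice of the family used this contrast nothing is read from that share. In whole tissue, fewer cells of a type and less RNA in each of them cannot be told apart.

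**Figure D1:**
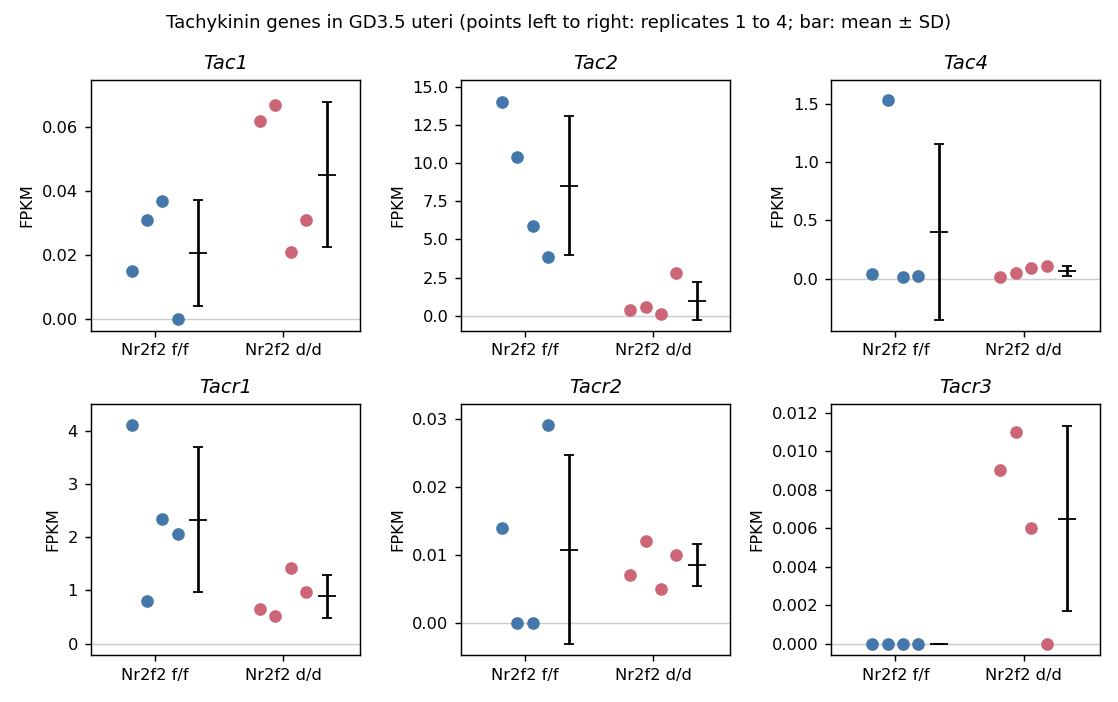
FPKM of the 6 genes in each library, with 1 panel and 1 linear axis per gene. Points are the 4 Nr2f2 f/f libraries (blue) and the 4 Nr2f2 d/d libraries (red) in the order of replicates 1 to 4, and bars are means ± SD. The Tac2 points of the groups do not overlap, the Tac4 mean of Nr2f2 f/f rests on the library at 1.54 FPKM, and the axes of Tac1, Tacr2 and Tacr3 span less than 0.1 FPKM.

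The other ligand genes were at the edge of detection in most libraries. Tac1 had 0.015, 0.031, 0.037 and 0 FPKM in replicates 1 to 4 of Nr2f2 f/f, and 0.062, 0.067, 0.021 and 0.031 FPKM in Nr2f2 d/d replicates 1 to 4. These values correspond to at most about 6 fragments in a library, while 3 fragments of Tac1 come to 0.0263 to 0.0397 FPKM in these libraries. The ranges of the groups overlapped. The means were 0.0208 ± 0.0167 and 0.0453 ± 0.0227 FPKM (SD, n = 4 each), and a two-sided exact permutation test gave p = 0.2, where 4 libraries against 4 cannot give less than 0.0286. No difference in Tac1 was detected.

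Tac4 had 0.038, 1.54, 0.010 and 0.026 FPKM in Nr2f2 f/f replicates 1 to 4. In Nr2f2 d/d replicates 1 to 4 it had 0.013, 0.045, 0.087 and 0.106 FPKM. A single library, Nr2f2 f/f replicate 2, held 118 of the 151 Tac4 fragments of the 8 libraries and was 14.5-fold above the next, while the other 3 Nr2f2 f/f libraries had 3 fragments or fewer. The means were 0.403 ± 0.756 and 0.0628 ± 0.0418 FPKM (SD, n = 4 each; two-sided exact permutation p = 0.914). Without Nr2f2 f/f replicate 2 the order of the means turned, with 0.0247 FPKM in Nr2f2 f/f and a difference of 0.0381 FPKM in favour of Nr2f2 d/d. Hemokinin-1 is known from B cells and other leukocytes, and the leukocyte markers of Nr2f2 f/f replicate 2 summed to 57.3 FPKM, within the 47.7 to 69.6 FPKM of Nr2f2 d/d.

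Among the receptors, Tacr1, which binds substance P and hemokinin-1 best, was the one at a level that could be tested. Tacr1 had 4.11, 0.792, 2.35 and 2.06 FPKM in Nr2f2 f/f replicates 1 to 4, about 245 to 1305 fragments a library. In Nr2f2 d/d replicates 1 to 4 it had 0.647, 0.510, 1.42 and 0.979 FPKM, about 183 to 660 fragments. The groups overlapped through Nr2f2 f/f replicate 2, which lay below 2 of the 4 Nr2f2 d/d libraries. The other 3 Nr2f2 f/f libraries were above all 4 Nr2f2 d/d libraries. The means were 2.33 ± 1.37 and 0.889 ± 0.405 FPKM (SD, n = 4 each), the Nr2f2 d/d mean being 38.1% of the Nr2f2 f/f mean. The log2 change of -0.93 had a standard error of 0.376 and did not pass the test (adjusted p = 0.209 from limma over the 14323 genes, of which 2.62% had an adjusted p under 0.05). Without Nr2f2 f/f replicate 2 the Nr2f2 f/f mean was 2.84 ± 1.11 FPKM (SD, n = 3) and the log2 change -1.26 (adjusted p = 0.0704 from limma), the lowest p of the 8 fits that left out 1 library. Without Nr2f2 d/d replicate 3 it was -1.10 (adjusted p = 0.195 from limma). With all 8 libraries Tacr1 met the looser threshold of the study's methods, an unadjusted p under 0.05 with a fold of at least 1.4, which 4.1% of all genes tested met in this direction.

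Tacr2 and Tacr3, the preferred receptors of neurokinin A and neurokinin B, were at or near 0 in both groups. Tacr2 had 0 to 0.029 FPKM in Nr2f2 f/f and 0.005 to 0.012 FPKM in Nr2f2 d/d, with 6 fragments over the 4 libraries of either group (two-sided exact permutation p = 0.857, n = 4 each). Tacr3 was listed at 0 in all 4 Nr2f2 f/f libraries, where a count of 0 allows up to 0.0102 to 0.0130 FPKM. In Nr2f2 d/d replicates 1 to 4 it had 0.009, 0.011, 0.006 and 0 FPKM, which are 3 fragments or fewer in each library (two-sided exact permutation p = 0.143, n = 4 each). Neither receptor gives a fold change at this depth. The receptor that neurokinin B prefers was thus near the limit of detection in the same uteri that held 3.83 to 14.0 FPKM of Tac2 in Nr2f2 f/f.

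The order of the mean levels was Tac2, Tacr1, Tac4, Tac1, Tacr2 and Tacr3 in both groups. In Nr2f2 f/f the Tac2 and Tacr1 ranges touched, at 3.83 to 14.0 and 0.792 to 4.11 FPKM, but Tac2 was above Tacr1 in each of the 4 libraries. In Nr2f2 d/d the means of 0.986 and 0.889 FPKM differed by less than their spread, and Tac2 was above Tacr1 in 2 of 4 libraries. Tac4, Tac1, Tacr2 and Tacr3 overlapped their neighbours in this order in at least 1 group.

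The ratio of Tac2 to Tacr1 differed widely from mouse to mouse. It was 3.40, 13.1, 2.49 and 1.85 in Nr2f2 f/f replicates 1 to 4. It was 0.595, 1.15, 0.103 and 2.89 in Nr2f2 d/d replicates 1 to 4. Nr2f2 f/f replicate 2 had the highest ratio, with the second highest Tac2 level and the lowest Tacr1 level of its group. Nr2f2 d/d replicate 3 had the lowest Tac2 and the highest Tacr1 of its group, and Nr2f2 d/d replicate 4 had a ratio inside the Nr2f2 f/f range.

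**Figure D2:**
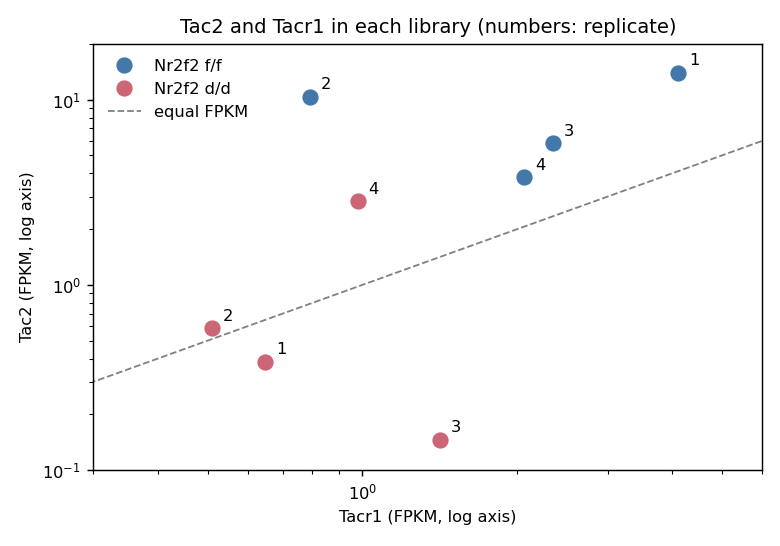
Tac2 (vertical) against Tacr1 (horizontal) in FPKM on log axes, with 1 point per library (blue Nr2f2 f/f, red Nr2f2 d/d), numbers for the replicate and a dashed line at equal FPKM. The 4 Nr2f2 f/f libraries lie above the line at ratios of 1.85 to 13.1, and the Nr2f2 d/d libraries lie on both sides of it at 0.103 to 2.89.

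Markers of other cell types moved between the same groups of mice. Of the 7 endothelial markers 5 fell in Nr2f2 d/d (Pecam1, Cdh5, Kdr, Emcn and Egfl7), and the list summed to 252 to 335 FPKM in Nr2f2 f/f and 157 to 199 FPKM in Nr2f2 d/d. Of the 6 gland markers 1 fell, the secreted protease inhibitor gene Spink1, and the list summed to 148 to 3291 FPKM in Nr2f2 f/f and 33.6 to 89.9 FPKM in Nr2f2 d/d. Without Nr2f2 f/f replicate 2 the highest gland sum of Nr2f2 f/f was 606 FPKM. Spink1 did not pass without Nr2f2 d/d replicate 3 (adjusted p = 0.0605 from limma). Of the 8 epithelial markers Krt8 and Elf3 rose, with sums of 529 to 560 and 709 to 827 FPKM. The part of these cell types in the Tac2, Tacr1 and Tac4 values was not tested.

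Smooth muscle, which tachykinins contract, had 0 of 8 markers past the test, with sums of 1297 to 1825 FPKM in Nr2f2 f/f and 1041 to 2561 FPKM in Nr2f2 d/d. Stromal markers summed to 1077 to 1373 and 1311 to 1572 FPKM, and 1 of 8 (Dcn) rose. Dcn alone had 357 to 499 FPKM in Nr2f2 f/f and 673 to 719 FPKM in Nr2f2 d/d, a large part of these sums. Of the 8 stromal markers 5 had a log2 change below 0 and 3 above it, with a median of -0.08. Mesothelial markers, of which 1 of 5 (Msln) rose, summed to 62.3 to 88.7 FPKM in Nr2f2 f/f and 80.5 to 99.6 FPKM in Nr2f2 d/d. None of the tested markers of leukocytes (7), mast cells (5), Schwann cells (3), ovary (3) or oviduct (3) passed the test. The mast cell list still summed to 15.2 to 22.6 FPKM in Nr2f2 f/f and 12.1 to 13.4 FPKM in Nr2f2 d/d, with 2 tested markers higher and 3 lower. The ovary list summed to 8.24 to 13.2 FPKM in Nr2f2 f/f and 13.6 to 28.3 FPKM in Nr2f2 d/d, with 2 higher and 1 lower. The sums of the leukocyte, Schwann cell and oviduct lists overlapped between groups. Of 14 markers of neurons and nerve fibres 1 was high enough to be tested and did not pass, and the list summed to 2.33 to 3.62 FPKM in Nr2f2 f/f and 3.55 to 4.84 FPKM in Nr2f2 d/d.

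The gland markers did not vary together, and some of them were high in the same libraries as Tac2. Spink1 had 288, 1332, 165 and 115 FPKM in replicates 1 to 4 of Nr2f2 f/f and 0.729, 5.15, 2.56 and 24.4 FPKM in Nr2f2 d/d replicates 1 to 4. Prss29, an implantation serine protease gene of the glands whose reads may be shared with its close relative Prss28, had 244, 1444, 2.80 and 2.05 FPKM in Nr2f2 f/f and 0.041, 1.35, 0.146 and 41.6 FPKM in Nr2f2 d/d. Replicates 1 and 2 of Nr2f2 f/f were thus the higher pair for Spink1, Prss29 and Tac2, and replicate 4 was the highest of Nr2f2 d/d for all 3 genes. Prss28 had the same order as Prss29 within each group. The 3 other gland markers were instead lowest in replicate 2 among the Nr2f2 f/f libraries. Foxa2, a transcription factor gene of gland cells, had 5.15, 3.24, 7.74 and 6.96 FPKM in replicates 1 to 4 of Nr2f2 f/f and 6.39, 5.71, 5.82 and 4.02 FPKM in Nr2f2 d/d. Cxcl15, a chemokine gene of the glands, had 6.83, 1.18, 17.6 and 13.4 FPKM in Nr2f2 f/f and 22.2, 18.9, 18.8 and 5.62 FPKM in Nr2f2 d/d. Both were also lowest in replicate 4 among the Nr2f2 d/d libraries. Lif, which the glands make just before implantation, had 12.2, 0.647, 9.48 and 9.86 FPKM in Nr2f2 f/f and 4.24, 4.21, 6.83 and 7.30 FPKM in Nr2f2 d/d. Its lowest library of all 8 was Nr2f2 f/f replicate 2, the library with low Tacr1 and high Tac4.

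**Figure D3:**
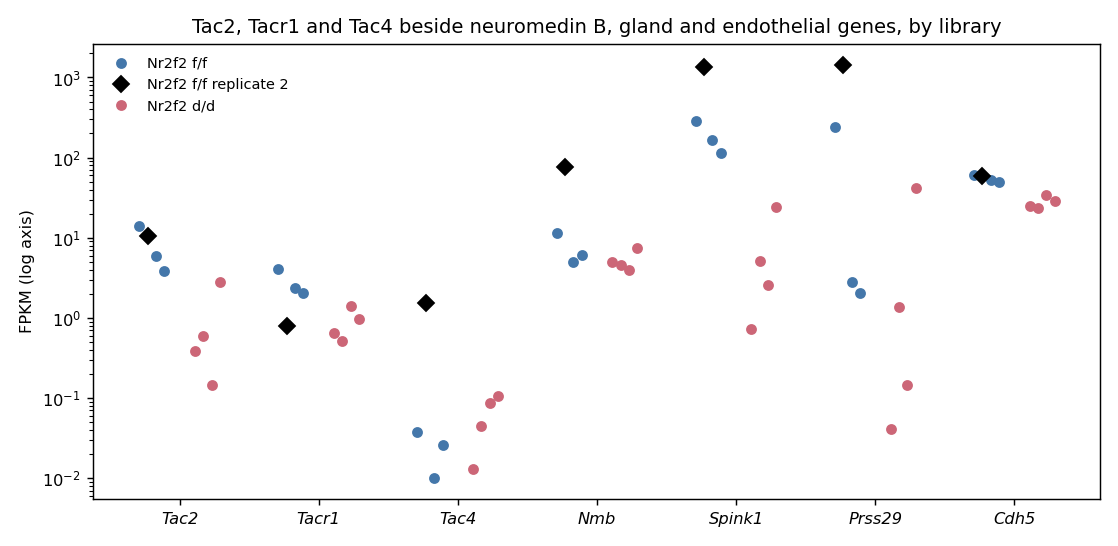
FPKM on a log axis of Tac2, Tacr1 and Tac4 beside the neuropeptide gene Nmb, the gland genes Spink1 and Prss29 and the endothelial gene Cdh5, with 1 point per library (blue Nr2f2 f/f, red Nr2f2 d/d, replicates in order). The black diamond is Nr2f2 f/f replicate 2, which is above all other libraries for Tac4, Nmb, Spink1 and Prss29 and below the other Nr2f2 f/f libraries for Tacr1.

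Genes that make, remove or transmit tachykinin signals were described through 7 lists of 101 genes, of which 72 were high enough to be tested. Of these, 2 rose and 3 fell in Nr2f2 d/d, 6.94% of the 72 against 2.62% of all genes tested (1.09% higher and 1.53% lower). The groups did not overlap for 18 of the 72, against 15.4% of all genes tested, and the median log2 change was -0.13 against -0.02 over all genes. The lists were written with results of these data known, so the count is a description. At the looser threshold, 16 of the 72 passed, 5 higher and 11 lower, where 8.8% of all genes did.

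Precursors are cut by proprotein convertases and amidated by Pam. Of 10 such genes 8 were tested and 0 passed, with a median log2 change of -0.05. The smallest p-values belonged to Scg5, the chaperone of a convertase, with 0.54 (adjusted p = 0.101 from limma), to Pam, with 0.46 (adjusted p = 0.114 from limma), and to the convertase gene Pcsk5, with -0.52 (adjusted p = 0.213 from limma). The neuroendocrine convertase genes Pcsk1 and Pcsk2 had group means of at most 0.0588 FPKM and were not tested. Of 9 genes for peptidases that can degrade tachykinins 7 were tested and 0 passed, with a median of -0.34. Ace, the angiotensin-converting enzyme gene, went from 8.14 ± 2.87 to 3.81 ± 0.795 FPKM (SD, n = 4 each) without overlap of the groups (log2 change -0.96, adjusted p = 0.0726 from limma). The endothelin-converting enzyme gene Ece1 had a log2 change of -0.60 (adjusted p = 0.146) and the oligopeptidase gene Thop1 one of -0.26 (adjusted p = 0.193). Mme, which encodes neprilysin, the main substance P-degrading enzyme, had means of 113 and 91.1 FPKM (log2 change -0.43, adjusted p = 0.716 from limma). Anpep, the aminopeptidase N gene, had the largest change of the list and in the other direction, with 238 ± 135 and 451 ± 77.7 FPKM (SD, n = 4 each; log2 change 1.15, adjusted p = 0.222 from limma), and it met the looser threshold as Ace and Ece1 did.

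Among 20 genes of G protein signalling and receptor desensitization, all tested, 2 fell and 0 rose, with a median of -0.13. Rgs2, which encodes a brake on Gq signalling, had 138 to 174 FPKM in Nr2f2 f/f and 54.7 to 85.3 FPKM in Nr2f2 d/d, and fell (log2 change -1.18, standard error 0.149, adjusted p = 0.0132 from limma). Arrb1, which encodes a beta-arrestin that uncouples and internalizes receptors, fell from 22.2 ± 2.68 to 14.0 ± 2.02 FPKM (SD, n = 4 each; log2 change -0.65, adjusted p = 0.0398 from limma). Rgs4, another brake on Gq, had a log2 change of -0.53 that did not pass (adjusted p = 0.0736). Gnaq, the Gq alpha subunit gene itself, had means of 13.2 and 11.5 FPKM (log2 change -0.19, adjusted p = 0.239 from limma).

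The contractile machinery that these signals reach did not pass the test at any of 12 genes, and the median was 0.04. The calcium channel gene Cacna1c (-0.32, adjusted p = 0.139 from limma) and the myosin phosphatase subunit gene Ppp1r12a (-0.30, adjusted p = 0.145) had the smallest p-values. Of 15 genes listed as other receptors that contract uterine muscle, 11 were tested, 2 rose and 1 fell, with a median of -0.09. Oxtr, the oxytocin receptor gene, had 1.65 ± 0.545 FPKM in Nr2f2 f/f and rose to 3.85 ± 0.615 FPKM in Nr2f2 d/d (SD, n = 4 each; log2 change 1.04, adjusted p = 0.0366 from limma). The vasopressin receptor gene Avpr1a had 0.437 ± 0.128 FPKM in Nr2f2 f/f and rose to 1.11 ± 0.148 FPKM in Nr2f2 d/d (SD, n = 4 each; log2 change 0.79, adjusted p = 0.0268 from limma). Ednrb, an endothelin receptor gene also used by endothelial and neural crest-derived cells, had 15.6 to 30.1 FPKM in Nr2f2 f/f and 3.22 to 3.96 FPKM in Nr2f2 d/d (log2 change -2.33, adjusted p = 0.00549 from limma). The cell type behind the Ednrb values and its part in contraction were not tested.

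Of these 5 calls, that of Ednrb was kept in 8 of 8 fits that left out 1 library and that of Rgs2 in 7, while those of Arrb1, Avpr1a and Oxtr were kept in 1 fit each. The fits called 1 list gene without Nr2f2 d/d replicate 1, 2 without Nr2f2 d/d replicate 2 or 4 or Nr2f2 f/f replicate 1 or 4, and 3 without Nr2f2 f/f replicate 3, of which Calcrl was not among the 5. Without Nr2f2 d/d replicate 3, 4 were called, 3 of them among the 5 and the prostaglandin receptor gene Ptger3 besides. Without Nr2f2 f/f replicate 2, 5 were called, 4 of them the same genes and the neuromedin U receptor gene Nmur2 besides.

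**Figure D4:**
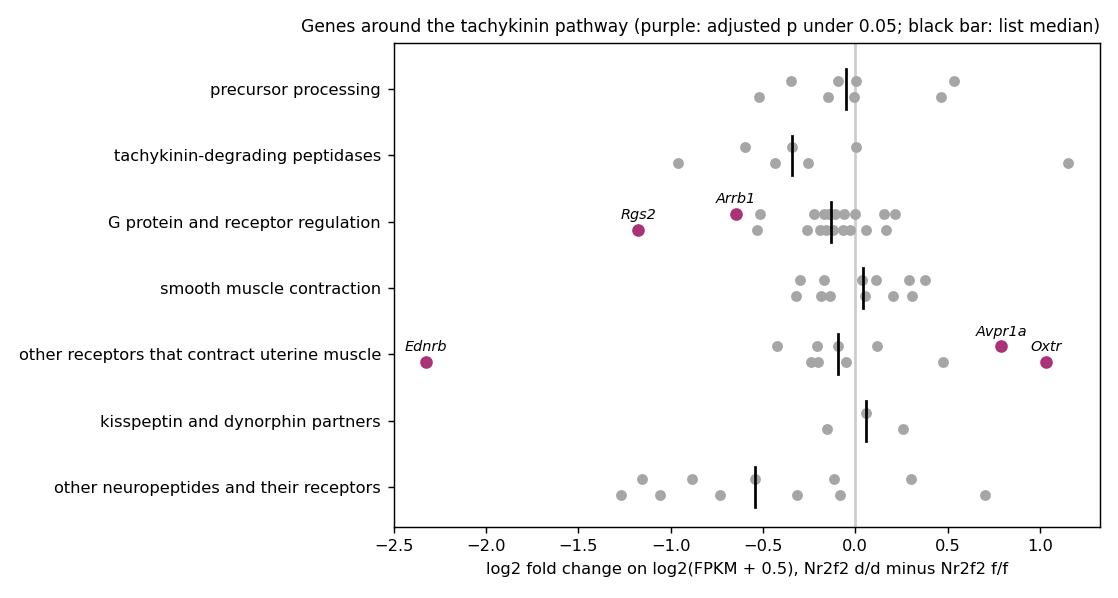
Log2 change on log2(FPKM + 0.5), Nr2f2 d/d minus Nr2f2 f/f, of the 72 tested genes in 7 lists around the tachykinin pathway, with 1 point per gene. Purple points passed an adjusted p of 0.05 (Rgs2, Arrb1, Ednrb, Avpr1a and Oxtr), grey points did not, and the black bar is the median of each list, from -0.54 to 0.06.

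The partners of neurokinin B in the hypothalamus were low in the uterus and none of the 3 tested passed. Kiss1, the kisspeptin gene, had means of 0.636 and 0.840 FPKM (log2 change 0.26, adjusted p = 0.388 from limma), and its receptor gene Kiss1r had 0.623 and 0.664 FPKM (0.06, adjusted p = 0.815). Gnrh1 had 2.79 and 2.44 FPKM (-0.15, adjusted p = 0.532 from limma). The dynorphin gene Pdyn and its receptor gene Oprk1 had group means of at most 0.115 and 0.0005 FPKM and were not tested.

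Of 29 genes for other neuropeptides and their receptors 11 were tested and 0 passed, with a median log2 change of -0.54, and 4 of the 11 were lower and 1 higher at the threshold of the study's methods, against 4.1% and 4.7% of all genes. Vipr1, a receptor gene for vasoactive intestinal peptide, had a log2 change of -0.54 (adjusted p = 0.0626 from limma). Without Nr2f2 f/f replicate 2 the log2 change of Vipr1 was -0.51 (adjusted p = 0.0978 from limma). Grp, the gastrin-releasing peptide gene, had 0.494 to 1.43 FPKM in Nr2f2 f/f and 0.201 to 0.384 FPKM in Nr2f2 d/d (log2 change -0.88, adjusted p = 0.0689 from limma). Calcrl, the receptor gene for calcitonin gene-related peptide and adrenomedullin, had -0.73 (adjusted p = 0.0717 from limma). Nmb, the neuromedin B gene, was named after its values were seen, because the library that stood apart for Tac4 also stood apart here: 11.3, 77.3, 5.04 and 6.06 FPKM in replicates 1 to 4 of Nr2f2 f/f and 3.98 to 7.43 FPKM in Nr2f2 d/d (log2 change -1.27, adjusted p = 0.372 from limma). Without Nr2f2 f/f replicate 2 the log2 change of Nmb was -0.43 (adjusted p = 0.451 from limma).

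The genes most like Tac2 over the 8 libraries, by Pearson's r on log2(FPKM + 0.5) among the 13211 genes that averaged 1 FPKM or more, were Elmo2, Begain, Nrn1, Adam15 and Tle1, with r from 0.97 to 0.98. All 5 were lower in Nr2f2 d/d with groups that did not overlap, which the likeness to Tac2 itself favours, and their differences were smaller. Begain, a synapse-associated gene, had 4.96 to 7.74 FPKM in Nr2f2 f/f and 1.95, 2.23, 1.68 and 3.37 FPKM in Nr2f2 d/d replicates 1 to 4, the same order of the Nr2f2 d/d mice as for Tac2. When only the deviations from the group means were compared, the most alike were Gstp3, Tmem176a, Zfp512, Tnip1 and Synrg, with r from 0.96 to 0.98. Gstp3, a glutathione transferase gene, had 3.11, 2.52, 2.09 and 1.69 FPKM in replicates 1 to 4 of Nr2f2 f/f and 2.31, 2.26, 1.56 and 4.02 FPKM in Nr2f2 d/d. The Gstp3 means were 2.35 and 2.54 FPKM. These r values describe 8 libraries, within each of which all genes share its depth and composition, and they were the highest of many.

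The promoter of Tac2 is shown because Tac2 differed most of the 6 genes. The 250 bases before its start are given on the plus strand of GRCm38.p6, the build of mm10, as RefSeq has them.

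Tac2, chr10:127724228-127724477: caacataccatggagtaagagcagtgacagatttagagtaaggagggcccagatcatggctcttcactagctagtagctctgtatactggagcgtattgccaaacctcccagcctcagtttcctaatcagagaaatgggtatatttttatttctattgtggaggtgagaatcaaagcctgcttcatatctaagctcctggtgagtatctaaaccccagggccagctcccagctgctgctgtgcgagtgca

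All 6 genes had an entry in the table of promoters, which runs from 250 bases before to 50 after the start it uses. For Tac1 (chr6:7554811-7555110) and Tacr1 (chr6:82402225-82402524) that start lies inside the gene, after the gene start given above. Fewer than 250 bases before those gene starts were therefore searched. The letters AGGTCA, the core to which NR2F2 and other nuclear receptors bind, and AGAACA, part of the element of the progesterone receptor, were searched on both strands. They were present in 0 of the 6 promoters, where 16.3% and 19.0% of 32851 promoters of the same length hold them. These letters are absent from the windows, which says nothing about binding of either factor elsewhere. The study reports (A/G)GGTCA as the sequence enriched at its uterine NR2F2 sites, and the GGGTCA form was not searched.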

How the data were processed

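RNA from the uterus of 8 mice was sequenced from libraries of the TruSeq RNA Library Prep kit v2, which does not keep strand, as 76-bp paired-end reads. The authors deposited FPKM for 24963 genes. According to the labels and the study's methods, reads were trimmed with cutadapt 1.12, aligned to mm10 with STAR 2.5.2b and counted with featureCounts 1.5.0-p1, and the submitters' notes also name Cufflinks 2.0.2. The gene annotation, gene lengths and formula of the FPKM are not given in the sources used here. FPKM are relative to a library's total, so very abundant transcripts shift all others.

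The 8 columns were matched to samples by name. FPKM are not counts, so log2(FPKM + 0.5) of the 14323 genes that averaged 0.5 FPKM or more was compared with limma 3.58.1 in R 4.3.3 (lmFit, two-sided, eBayes with a mean-variance trend, Benjamini-Hochberg over all genes tested), in place of the study's DESeq2 on counts. The value added understates changes of low genes. Members under that mean were compared by exact permutation of the difference of mean FPKM over 70 arrangements. Of the 6 genes 2 passed the filter. Each mouse gave 1 library.

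Library totals are those at which 75.5% to 80.1% of the values of short single-exon genes were whole fragments within 0.02 of a fragment plus the rounding of the FPKM. Fragments per gene use exon lengths of GENCODE vM21 transcripts, are approximate, most of all for Tac1, and their floors of 3 fragments cover counting error only. Sequences come from GENCODE vM21 and RefSeq (GRCm38.p6). No protein sequence was used.

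Named were the 6 genes, Nr2f2, in each list the 3 tested genes of smallest p, the 5 genes most like Tac2 by each of 2 measures, and cell type markers. Nmb, Mme, Anpep, Gnaq, Pcsk1, Pcsk2, Pdyn, Oprk1, Ptger3 and Nmur2 were named outside this rule after their values were seen. A further gene of the smooth muscle contraction list is not reported here. The members and lists were chosen with earlier results of these data known. The model was tested on simulated data. Alternatives were 0.1 or 1 FPKM added, no filter or a minimum mean of 1 FPKM, quantile or median-ratio normalization, robust eBayes or eBayes without the trend, the numbers of the titles or descriptions as a block, the study's threshold, and each library left out.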

Additional observations from a re-analysis of the deposited data

Results flagged for a closer look

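In both groups of each of 64 genes that the text names, 128 groups in all, a library was marked where its gap to the nearest of the other 3, divided by the range of the group, was above Dixon's critical value for 4 values. Chance marks about 1 in 20 groups, and 15 were marked here. Some of these genes were named because a library stood apart in them, so the number of marks is not that of a chance selection.

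For Tac2 it was Nr2f2 d/d replicate 4, at 2.83 FPKM, with a gap of 0.836 of the range. For Tac4 it was Nr2f2 f/f replicate 2, at 1.54 FPKM, with 0.982. For Nr2f2 it was Nr2f2 d/d replicate 3, at 6.90 FPKM, the lowest of its group, with 0.888. Nr2f2 d/d replicate 4, the highest of its group for Tac2, had 9.74 FPKM of Nr2f2, and Nr2f2 d/d replicate 3, the lowest for Tac2, had the lowest Nr2f2. Nr2f2 d/d replicates 1 and 2 had 9.66 and 9.42 FPKM of Nr2f2, close to replicate 4, but 0.385 and 0.587 FPKM of Tac2. Over 4 mice no relation between these genes was tested.

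Among the neuropeptide genes and their receptors, Nr2f2 f/f replicate 2 was the highest of its group for Nmb, at 77.3 FPKM (0.913), for Vipr1, at 0.865 FPKM (0.862), and for Nmur2, at 1.51 FPKM (0.884). Oprk1 was listed at 0 in all libraries of Nr2f2 d/d but replicate 3, which had 0.002 FPKM (a gap of 1, the whole range).

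Among the gland genes, Nr2f2 f/f replicate 2 was the highest of its group for Spink1, at 1332 FPKM (0.858), Prss28, at 509.7 FPKM (0.903), and Prss29, at 1444 FPKM (0.832). Nr2f2 d/d replicate 4 was the highest of its group for Prss28, at 6.99 FPKM (0.954), and Prss29, at 41.6 FPKM (0.968). For the endothelial gene Kdr it was Nr2f2 d/d replicate 3, at 10.5 FPKM (0.834), and for the stromal gene Dcn Nr2f2 d/d replicate 2, at 673 FPKM (0.853). For Tle1 it was Nr2f2 f/f replicate 1, at 12.5 FPKM (0.848).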

How the results depend on the processing

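The number of genes past an adjusted p of 0.05 was 375. It was 317 to 422 in separate fits with other values added, filters, scalings or eBayes settings, and 42 to 347 with 1 library left out (leaving out Nr2f2 f/f replicate 1, 3 or 4 gave 62, 210 or 98, and leaving out Nr2f2 d/d replicate 1 or 2 gave 56 or 42). With the replicate number of the titles as a block 1 gene was called, and with the numbers of the descriptions, over 6 libraries, 0, where 3198 genes had an unadjusted p under 0.05 in limma. Same-numbered mice did not deviate together (correlations of -0.204 to 0.0452 for titles and -0.204 to 0.149 for descriptions, against -0.322 to 0.279 for other pairs), so the numbers were not taken to pair the mice. The cause of the lost calls was not tested. The study's threshold called 1260 genes. The number of list genes called was 5. It was 4 to 6 with other values added, filters, scalings or eBayes settings, 1 to 5 with 1 library left out, 0 under either block and 16 at the study's threshold. With median-ratio scaling 191 of 376 genes called were higher, against 156 of 375.

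The log2 change of Tac2 was -3.25 to -2.46 with 1 library left out and -3.45 to -2.30 under the other settings. That of Tacr1 was -1.26 to -0.65 with 1 library left out (adjusted p of 0.0704 to 0.407 from limma) and -1.43 to -0.75 under the other settings, with the replicate block of the titles at -0.93 (adjusted p = 0.231), and the adjusted p of Tacr1 was under 0.05 in none. With 1 library left out, the difference of mean FPKM was 0.0173 to 0.0326 for Tac1, -0.471 to 0.0381 for Tac4, -0.00583 to 0.00383 for Tacr2 and 0.005 to 0.00867 for Tacr3. Tac4 turned to 0.0381 without Nr2f2 f/f replicate 2 and Tacr2 to 0.00383 without Nr2f2 f/f replicate 4, the library with the most fragments of each gene in that group, and with 3 against 4 an exact permutation test cannot give a p below 0.0571. For these 4 genes, which were under the filter, the other limma settings were not run, and without the filter limma gave adjusted p-values of 0.367 to 0.903. Depth limits Tac1, Tac4, Tacr2 and Tacr3, at or near the floor of 3 fragments in most libraries.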
